A study of Naumovozyma castellii with 6 samples.

Results

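Among the Xrn1-sensitive unstable transcripts (XUTs) of the budding yeast Naumovozyma castellii, 219 of 1002 carried just 1 to 4 listed open reading frames (ORFs), each shorter than 200 nt. These few-ORF XUTs held 589 of the 8742 ORFs in the merged table (6.74%). They were chosen by ORF number, length and position, without use of any read. Of 322 XUTs with 1 to 4 ORFs, 26 were left out for an ORF of 200 nt or more and 29 for lying within 50000 nt of a chromosome end of the table. A further 48 were left out because their span overlapped or lay within 1000 nt of an XUT on the other strand. The longest ORF kept was 198 nt and the shortest longest ORF left out was 210 nt, and 7 XUTs lay less than 20 nt under the limit and 4 less than 20 nt above it.

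XUTs are long noncoding RNAs that escape early decay in the nucleus and are removed in the cytoplasm by the 5′-to-3′ exonuclease Xrn1. Since they reach the cytoplasm, ribosomes can engage them, usually at short ORFs near their 5′ end. Translation that ends at an early stop codon can mark an RNA for nonsense-mediated decay, in which the helicase Upf1 acts. A ribosome moves 1 codon at a time, so footprints of translating ribosomes repeat with a 3-nt step, whereas fragments protected by other means need not.

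Ribosome footprints were sequenced from 3 upf1 libraries (genotype MATalpha ura3-1 ho upf1::kanMX6, strain YAM2890) and 3 wild-type libraries (MATalpha ura3-1 ho, strain YAM2478). All cells were in mid-log phase in YPD at 25 °C and were exposed for 15 min to cycloheximide (CHX), which arrests elongating ribosomes. Each strain is a single strain name in the labels, and both carry ura3-1 and ho. The deposited table gives 1 merged value per ORF with no library or strain named, so upf1 and wild type could not be compared and no replicate error exists. Its 212510 reads over XUT ORFs are not a library depth, because reads in overlapping ORFs are counted in each.

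For each ORF the table gives the reads, the number of valid codons, a phase score from 0 to 1 that measures the 3-nt step, and the authors' call of the ORF as translating or not. No source used here defines a valid codon. In all 8742 ORFs a call required at least 5 valid codons, and called ORFs scored 0.323 or more while uncalled ORFs with 5 valid codons scored 0.317 or less. Shares below carry Wilson 95% intervals, which cover counting error only and treat ORFs or XUTs as independent. For shares of reads the intervals treat each read as independent. They leave out that reads cluster in few XUTs and that reads in overlapping ORFs are counted in each. Where a count was 0, the share said to be allowed is 3 divided by the number of ORFs, which is not a Wilson limit. No test over ORFs was made, so differences between shares are descriptions.

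Most of the few-ORF XUTs had little or no ribosome signal. Of their 589 ORFs, 187 had at least 1 read (31.7%, interval 28.1 to 35.6%), beside 31.1% of all ORFs in the table. By transcript, 110 of 219 had a read in any ORF (50.2%, 43.7 to 56.8%), beside 75.2% of all XUTs, whose ORF number is larger. The ORFs together collected 1755 reads, which was 0.826% of the table (0.788 to 0.865%). Without the ORF with most reads the share was 0.781%, below that interval. Where ORFs of an XUT overlap, taking the ORF with most reads in each group of overlapping ORFs left 1346 reads. Averaged over codons, the few-ORF XUTs had 0.155 reads per codon, against 0.482 in the ORFs under 200 nt of all other XUTs. The medians over ORFs with reads lay closer, at 0.167 reads per codon in the few-ORF XUTs, against 0.182 in all ORFs with reads of other XUTs and 0.143 in XUTs with more than 4 short ORFs. Among the 187 ORFs with reads, the lowest, median and highest counts were 1, 3 and 96 reads. No ORF reached 100 reads, and 0 of 589 allows a share of up to 0.509%, whereas 190 of the 8153 other ORFs did so (2.33%). The other ORFs are not limited in length and run up to 3393 nt, so these shares are not matched.

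Of the 589 ORFs, 27 carried the authors' call of translation (4.58%, interval 3.17 to 6.59%), beside 6.60% of all ORFs. These 27 lay in 20 of the 219 XUTs (9.13%, 5.99 to 13.7%), beside 27.0% of all XUTs. Under the same limits of position, XUTs with more than 4 ORFs, all under 200 nt, had 3.19% of ORFs called. XUTs whose longest ORF was 200 to under 600 nt had 4.69% called. The shares of XUTs with a call in these sets were 22.2% and 36.1%. The share per XUT depends on how many ORFs are listed, which the selection limits. The median called ORF had 23 reads (interquartile range 11 to 55) and 7 valid codons (5 to 9), against 2 reads and 1 valid codon in the 160 ORFs with reads that were not called. In the 550 called ORFs of the other XUTs the medians were 41 reads and 9 valid codons. The phase scores of the 27 ran from 0.328 to 0.992 with a median of 0.634 (0.448 to 0.725), and the median over all 577 called ORFs of the table was 0.595. Of the 27, 15 scored at least 0.6 and 10 at least 0.7. Reads were less concentrated in called ORFs in the few-ORF XUTs, where 56.3% fell in such an ORF (988 of 1755, 54.0 to 58.6%). This share was 75.7% in XUTs with more than 4 short ORFs and 84.2% where the longest ORF was 200 to under 600 nt. It was 93.4% in all other XUTs together, where a single called ORF had 35470 of the 210755 reads.

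**Figure D1:**
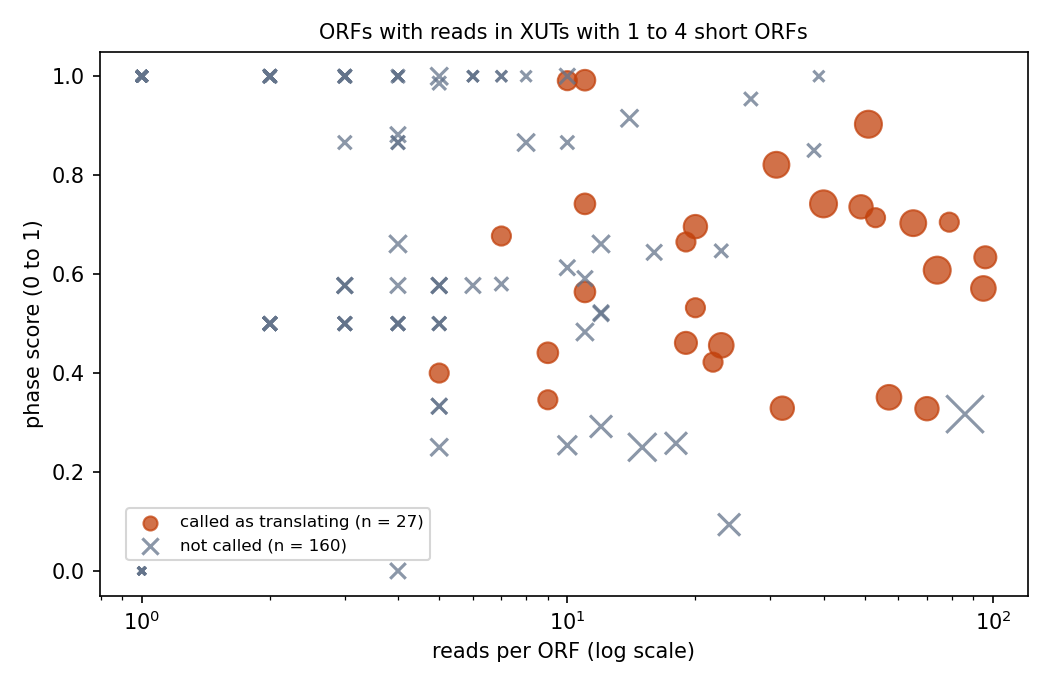
Phase score (0 to 1) against reads per ORF (log scale) for the 187 ORFs with reads in XUTs with 1 to 4 short ORFs. Orange circles are the 27 called ORFs and grey crosses the 160 others, with a larger mark for more valid codons. High scores at few reads belong mostly to uncalled ORFs with 1 valid codon, of which 85 all score 1.

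Most uncalled ORFs lacked the codons for a call. A single valid codon was recorded in 85 ORFs, with 206 reads in all, and each of these scored 1, so a high score there carries no information on the 3-nt step. A further 38 had 2 valid codons, 18 had 3, 7 had 4 and 6 had reads but no valid codon. Of 33 ORFs that reached 5 valid codons, 27 were called (81.8%, interval 65.6 to 91.4%), beside 88.1% over the table. Of the 27 called ORFs, 9 had exactly 5 valid codons and 5 had 10 or more. Within classes of reads, not matched in length, 4 of 24 ORFs with 5 to 9 reads were called, against 35 of 361 in other XUTs. With 10 to 29 reads 10 of 27 were called in the few-ORF XUTs, against 187 of 369 in other XUTs. With 30 to 99 reads these numbers were 13 of 16, against 157 of 202.

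The highest sums of reads came from 3 XUTs with over 100 reads each, and in these several overlapping ORFs were called at once. Reads in shared stretches enter these sums more than once. The highest count of a single ORF was 96 in XUT0488, 74 in XUT0321 and 65 in XUT0471. Single ORFs of XUT0826, XUT0397 and XUT0131 had 86, 79 and 70 reads. The rank of XUT0321 and XUT0471 thus depends on the overlap. XUT0488 (chromosome 3, minus strand) had the most reads, 193 over its 4 ORFs. Its first ORF, of 30 nt (728526 to 728555), had 96 reads at 9.60 reads per codon and scored 0.634, with 7 of 10 codons valid. Its second ORF, of 48 nt (728504 to 728551), scored 0.571 with 95 reads and 9 valid codons of 16. The pair shared 26 nt in frames 1 nt apart, and reads in the shared stretch enter both counts. The ORFs after these, of 120 and 33 nt, had 1 read each. Nearly all reads of XUT0488 thus lay in the first 52 nt of its 195-nt span of listed ORFs.

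XUT0321 (chromosome 2, minus strand) had 163 reads, and all 3 of its ORFs were called. The first ORF, of 45 nt (632892 to 632936), scored 0.608 with 74 reads and 11 valid codons of 15. The second, of 81 nt (632819 to 632899), scored 0.351 with 57 reads. Its last ORF, of 90 nt (632803 to 632892), had 32 reads and a score of 0.329, just above the lowest called score. The first ORF ended within the second, with 8 nt shared, and shared 1 nt with the last. The second and the last shared 74 nt in frames 1 nt apart. By ORF, reads and score were highest in the first and lowest in the last. Reads in the shared stretches enter each count, so the counts are not independent.

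XUT0471 (chromosome 3, plus strand) had 142 reads, of which 65 lay in its first ORF, of 66 nt (470036 to 470101), at a score of 0.703 and with 10 valid codons of 22. The second, of 36 nt (470070 to 470105), scored 0.714 with 53 reads and 5 valid codons of 12. The pair shared 32 nt in frames 1 nt apart. A 21-nt ORF (470074 to 470094) lay inside both, with 23 reads and 2 valid codons, and was not called. The last ORF, beyond a gap, had 1 read. In XUT0488 and XUT0471 nearly all reads lay in overlapping ORFs at the 5′ end of the listed stretch, whereas the overlapping ORFs of XUT0321 covered its whole stretch. These 3 XUTs together held 498 of the 1755 reads (28.4%), with reads in overlapping ORFs counted in each.

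The other 3 XUTs with more than 1 called ORF had weaker or less even signal. In XUT0131 (chromosome 1, plus strand) the first ORF, of 96 nt (1455988 to 1456083), scored 0.441 with 9 reads, and the second, of 90 nt (1456120 to 1456209), scored 0.328 with 70 reads. That score was the lowest of the 27, although just 5 of the 589 ORFs had more reads. In XUT0538 (chromosome 4, minus strand) ORFs of 123 nt (129020 to 129142) and 174 nt (128925 to 129098) had 11 and 10 reads and scores of 0.992 and 0.991. These were the highest scores of the 27, with 6 and 5 valid codons, and the pair shared 79 nt in frames 2 nt apart. In XUT0763 (chromosome 7, plus strand) ORFs of 156 nt (120030 to 120185) and 126 nt (120394 to 120519) were called on 5 and 9 reads, with 5 valid codons each and scores of 0.4 and 0.346. The first of this pair was called with 5 reads, the fewest of the 27.

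**Figure D2:**
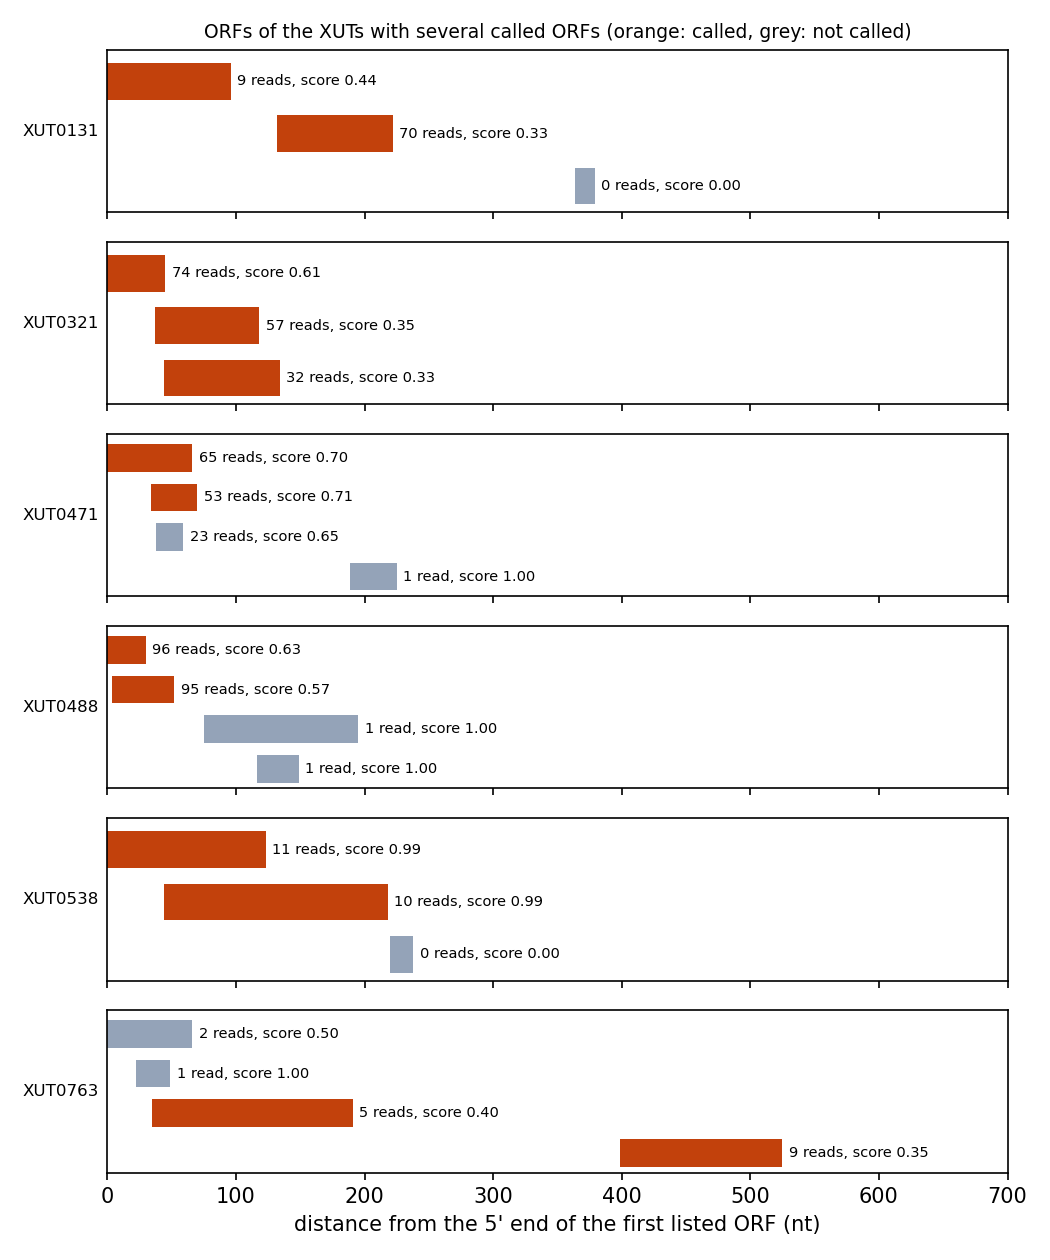
Listed ORFs of the 6 XUTs with 2 or more called ORFs, placed by distance in nt from the 5′ end of the first listed ORF, with the reads and phase score of each. Orange bars are called and grey bars uncalled ORFs, and called ORFs overlap in XUT0321, XUT0471, XUT0488 and XUT0538.

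The other 14 XUTs had a single called ORF each, and several of these stood nearly alone on their transcript. The clearest was the 87-nt ORF of XUT0740 (chromosome 6, 714441 to 714527, minus strand), the sole listed ORF of that XUT. It had 51 reads and 11 valid codons of 29 at a score of 0.903, and it was the single call among the 35 XUTs with just 1 ORF. The 90-nt first ORF of XUT0736 (chromosome 6, 673730 to 673819, minus strand) had 11 valid codons of 30, 40 reads and a score of 0.742, and held 88.9% of the reads of its XUT. The 57-nt second ORF of XUT0080 (chromosome 1, 862277 to 862333, minus strand) had 8 valid codons of 19, 20 reads and a score of 0.696. In XUT0805 (chromosome 7, plus strand) the 84-nt second ORF (415684 to 415767) scored 0.821 with 31 reads and 10 valid codons of 28. It shared 11 nt with the 63-nt first ORF (415632 to 415694), which had 24 reads and 7 valid codons but a score of 0.0936, the lowest among ORFs with 5 valid codons. Neighbouring ORFs of like coverage thus stood on opposite sides of the call.

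Further calls had between 5 and 8 valid codons. The 93-nt second ORF of XUT0397 (chromosome 2, 1530638 to 1530730, plus strand) had 79 reads with 5 of 31 codons valid, a ratio of 15.8 reads to valid codons that was the highest of the 27, and a score of 0.705. It shared 1 nt with an 18-nt ORF before it that had 0 reads. The 90-nt second ORF of XUT0081 (chromosome 1, 900218 to 900307, minus strand) had 49 reads, 8 valid codons and a score of 0.736. Upstream of it a 24-nt ORF (900418 to 900441) had 38 reads and 2 valid codons and was not called. In XUT0229 (chromosome 1, 2709766 to 2709855, plus strand) a 90-nt first ORF scored 0.422 with 22 reads and 5 valid codons, and the 105-nt ORF after it had 0 reads. In XUT0456 (chromosome 3, 368419 to 368520, minus strand) a 102-nt first ORF had 19 reads, 5 valid codons and a score of 0.665, and the other ORF had 0 reads. In both of these XUTs the called first ORF held all reads.

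The remaining single calls had between 7 and 23 reads. They were the 93-nt ORF at position 3 of XUT0460 (23 reads, score 0.456), the 30-nt second ORF of XUT0881 (20 reads, score 0.532) and the 114-nt second ORF of XUT0726 (19 reads, score 0.461). The 168-nt first ORF of XUT0025 scored 0.742 with 11 reads, and the 102-nt second ORF of XUT0949 scored 0.564 with 11 reads. The 183-nt last ORF of XUT0948, the longest of the 27, scored 0.677 with 7 reads. Its XUT had more reads in its first and second ORFs, 11 and 10, than in the called one. Calls with under 10 reads numbered 4, in XUT0131, XUT0763 and XUT0948.

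**Figure D3:**
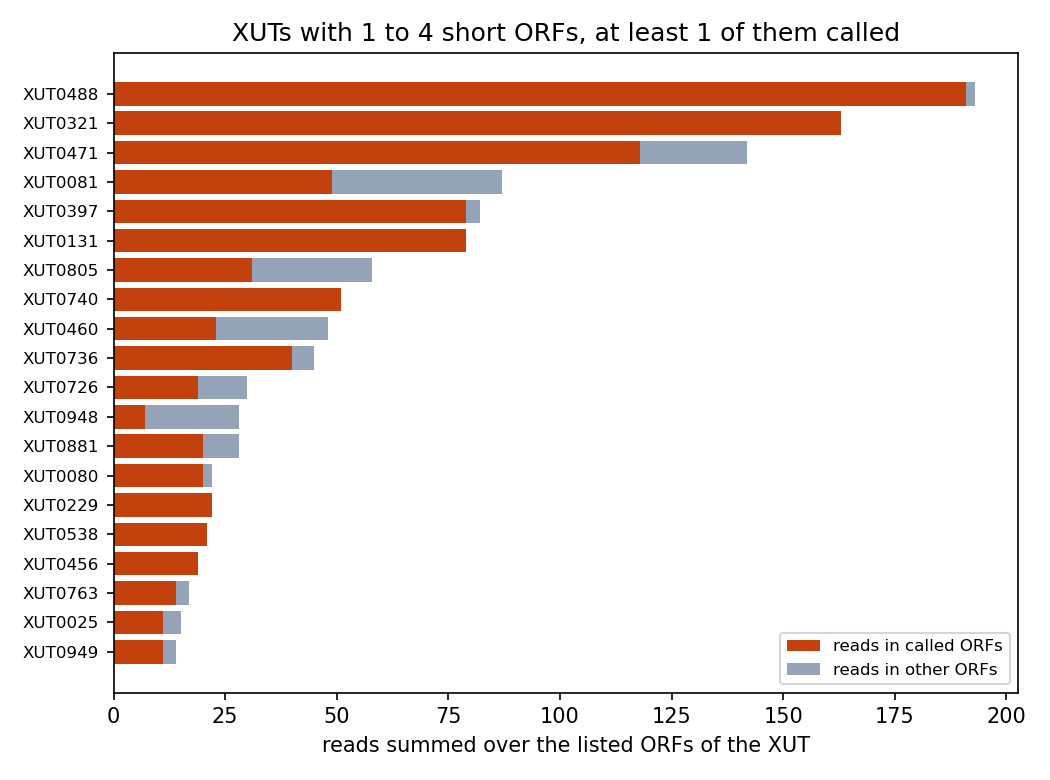
Reads summed over the listed ORFs of the 20 XUTs with a called ORF, in order of their sum, with reads in called ORFs in orange and in other ORFs in grey. The sums run from 14 reads in XUT0949 to 193 in XUT0488, and reads in overlapping ORFs are counted in each.

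A few uncalled ORFs had as many reads as the called ones. The 192-nt first ORF of XUT0826 (chromosome 7, 696461 to 696652, plus strand) had 86 reads, the third highest count of the 589, and 22 of 64 codons valid, the most of the 589. Its score of 0.317 was the highest among the 6 uncalled ORFs with 5 or more valid codons in the few-ORF XUTs, and lay just under the lowest called score of the table. The 171-nt first ORF of XUT0495 scored 0.250 with 15 reads and 12 valid codons, and the 102-nt first ORF of XUT0180 had 18 reads, 7 valid codons and a score of 0.258. The 72-nt second ORF of XUT0460 (12 reads, score 0.292) and the 126-nt first ORF of XUT0106 (10 reads, score 0.254) likewise had 5 or more valid codons. In contrast, the 15-nt first ORF of XUT0367 (chromosome 2, 1247516 to 1247530, minus strand) had 39 reads and 1 valid codon. The 162-nt second ORF of XUT0498 had 27 reads and 2 valid codons of 54. The first 5 ORFs of this group scored below every called ORF of the table, and the others had fewer than 5 valid codons.

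Longer ORFs were called more often within the few-ORF XUTs. The median length was 90 nt in the 27 called ORFs (interquartile range 73.5 to 108) and 42 nt in the 562 others (27 to 75), a difference of 48 nt. None of the 155 ORFs of 15 to under 30 nt was called, which allows a share of up to 1.94%, against 40 of 2272 in other XUTs (1.76%). At 30 to under 60 nt 6 of 217 were called (2.76%, interval 1.27 to 5.90%), against 5.05% in other XUTs (4.29 to 5.95%). At 60 to under 100 nt 12 of 128 were called (9.38%, 5.44 to 15.7%), against 8.26% (7.05 to 9.65%). At 100 to under 150 nt the numbers were 5 of 63 (7.94%, 3.44 to 17.3%), against 10.0%, and at 150 to under 200 nt 4 of 26 (15.4%, 6.15 to 33.5%), against 13.9%. The intervals of both sets overlapped in each length class. Since a call requires 5 valid codons, an ORF of 15 nt must have all of its codons valid. Within the 33 that had 5 valid codons the called ORFs were shorter, with a difference of -24 nt.

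**Figure D4:**
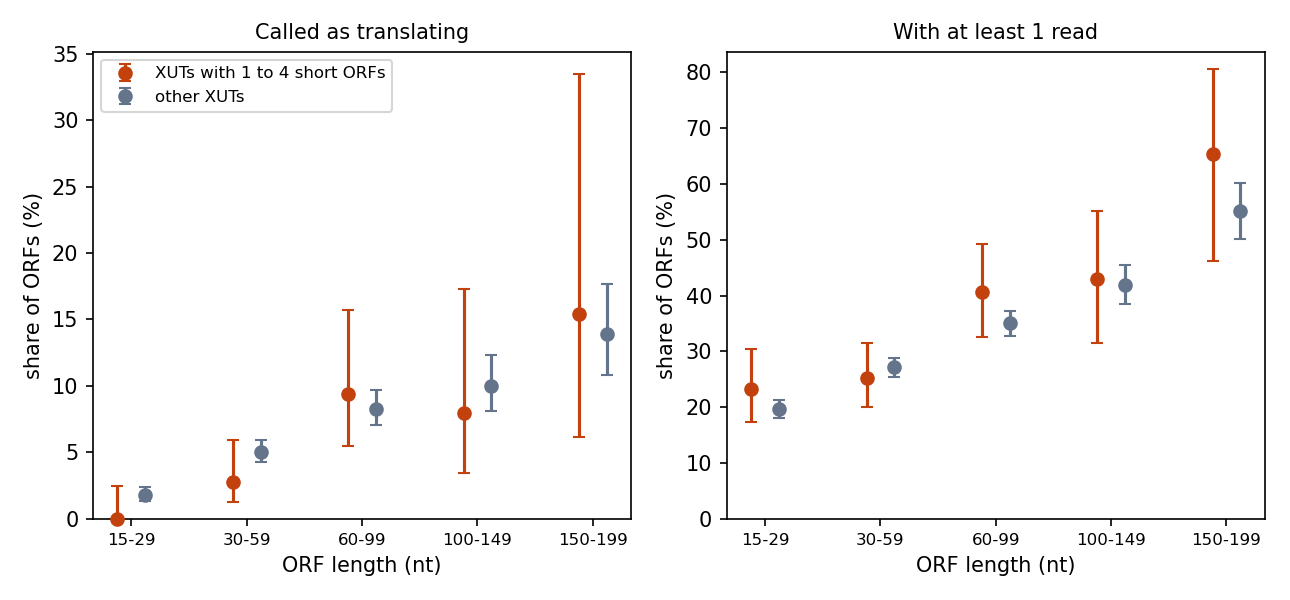
Share of ORFs (%) that were called as translating (left) and that had at least 1 read (right), by ORF length in nt, for XUTs with 1 to 4 short ORFs (orange) and all other XUTs (grey). Points are shares and bars Wilson 95% intervals, and both shares are higher in the longest class than in the shortest in both sets.

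The first ORF of a few-ORF XUT had reads more often than later ones, and the shares of called ORFs lay close together with a wide interval of their difference. In the 184 XUTs with 2 to 4 ORFs, 76 first ORFs had reads (41.3%, interval 34.4 to 48.5%), against 101 of 370 later ORFs (27.3%, 23.0 to 32.1%). Over the table these shares were 52.1% and 28.4%, and in XUTs with more than 4 short ORFs 51.6% and 22.2%. Called first ORFs numbered 9 (4.89%, 2.59 to 9.03%), beside 13.5% of first ORFs over the table. Called later ORFs numbered 17 (4.59%, 2.89 to 7.23%), beside 5.74% of later ORFs over the table. First minus later came to 0.297 percentage points, with a Newcombe 95% interval from -3.20 to 4.78. By position, 12 of 184 ORFs at position 2 (6.52%), 4 of 126 at position 3 (3.17%) and 1 of 60 at position 4 (1.67%) were called.

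The most similar XUTs in the table differed from this in numbers. Among the 316 XUTs with more than 4 ORFs, all under 200 nt and under the same limits of position, 33 first ORFs were called (10.4%, interval 7.53 to 14.3%), against 63 of 2689 later ORFs (2.34%, 1.84 to 2.99%). Among XUTs whose longest ORF was 200 to under 600 nt, the shares were 14.5% of 152 first ORFs, against 3.75% of 1785 later ones. The sets also differ in how many later ORFs an XUT lists. At 60 to under 200 nt, 7 of 76 first ORFs were called in the few-ORF XUTs (9.21%, 4.53 to 17.8%), against 13 of 133 later ones (9.77%, 5.80 to 16.0%). In XUTs with more than 4 short ORFs these were 18.1% of 138 first ORFs (12.6 to 25.4%), against 4.47% of 985 later ones (3.34 to 5.94%). Whether the gap between first and later ORFs differs between these sets was not tested.

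**Figure D5:**
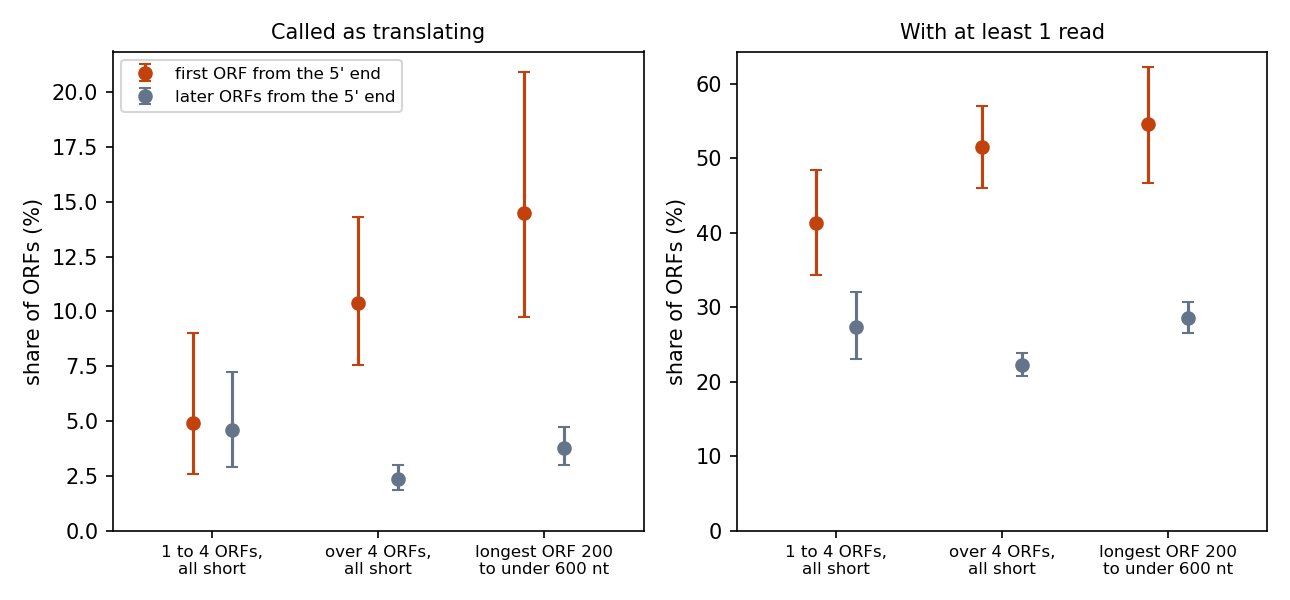
Share of first (orange) and later (grey) ORFs of an XUT that were called as translating (left) and that had at least 1 read (right), in percent, for XUTs with 2 or more ORFs in 3 sets. Points are shares and bars Wilson 95% intervals, and in XUTs with 1 to 4 short ORFs the called shares are 4.89% for first and 4.59% for later ORFs.

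The number of XUTs with a called ORF was also counted by how many ORFs they list, and XUTs with more ORFs have more that could be called. A called ORF was present in 1 of 35 XUTs with 1 ORF (2.86%, interval 0.506 to 14.5%), 2 of 58 with 2 ORFs (3.45%, 0.951 to 11.7%), 8 of 66 with 3 (12.1%, 6.27 to 22.1%) and 9 of 60 with 4 (15%, 8.10 to 26.1%). By ORF the shares were 2.86%, 1.72%, 6.06% and 5%, with no steady order and overlapping intervals. XUTs with reads numbered 10 of 35 (28.6%), 25 of 58 (43.1%), 35 of 66 (53.0%) and 40 of 60 (66.7%), in the same order. The XUTs with 1 or 2 ORFs held 94 and 153 reads, and those with 3 and 4 held 728 and 780.

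Overlap between ORFs bore on the number of independent calls. In 118 of the 219 XUTs at least 2 listed ORFs overlapped, in 172 pairs, and none of the pairs was in the same frame. Of the 27 called ORFs, 18 overlapped another ORF of their XUT and 9 did not. Over all 589 ORFs of the few-ORF XUTs, 288 overlapped another. In 4 XUTs called ORFs overlapped each other, and reads in the shared stretches were counted in each. Whether called ORFs overlap others more often was not tested. The 27 fell into 22 groups that shared no nucleotide. The called ORF was the one with most reads in 19 of the 20 XUTs with a call, the exception being XUT0948. The longest ORF was called in 17 of the 20.

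ORFs of few-ORF XUTs that overlapped annotated genes were called less often than those outside, as in other XUTs. The deposited table names no genome build, so genes of the RefSeq assembly ASM23734v1 were used for names, neighbours and overlap on either strand, and the overlap holds if the builds match. Of the 589 ORFs, 293 overlapped a listed gene (49.7%, interval 45.7 to 53.8%), beside 44.6% of all ORFs. This share was 57.6% in XUTs with more than 4 short ORFs. It was 55.2% in XUTs whose longest ORF was 200 to under 600 nt. Of the 293 ORFs, 7 were called (2.39%, 1.16 to 4.85%). Of the 296 ORFs outside listed genes, 20 were called (6.76%, 4.42 to 10.2%). In other XUTs the shares were 2.53% of 3603 overlapping ORFs and 10.1% of 4550 outside. ORFs that overlapped a gene held 348 of the reads and those outside 1407.

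The 7 called ORFs within listed genes lay in 5 XUTs. The gene names are those of Saccharomyces cerevisiae relatives, and the roles given here are known from that species. XUT0538 lay across CDC43, a subunit of an enzyme that attaches lipid groups to proteins, and XUT0025 across RRF1, a mitochondrial ribosome recycling factor. The called ORFs of XUT0763 lay across CYC2, a mitochondrial protein of cytochrome c maturation, and PEP12, an endosomal SNARE. XUT0949 lay across SLM3, a mitochondrial tRNA-modifying enzyme, and XUT0805 across NCAS0G02340, which has no other name in the table. The gene list used here gives no strand, so sense and antisense positions relative to a gene cannot be told apart. Apart from XUT0805, these ORFs had 5 to 11 reads each.

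The 7 XUTs with the highest sums of reads overlapped no listed gene, and the next, XUT0805 with 58 reads, lay across NCAS0G02340. XUT0488 lay between NCAS0C03620 and ARG1, the argininosuccinate synthetase of arginine synthesis. XUT0321 lay between MKC7, a cell-surface aspartyl protease, and TAF12, a subunit shared by the transcription complexes TFIID and SAGA. XUT0471 lay between SKS1, a protein kinase, and RMI1, a partner of the Sgs1 helicase. XUT0081 (87 reads) lay between NCAS0A04460 and ABF1, a general regulatory DNA-binding factor, and XUT0826 (86 reads, none called) between a tRNA gene and FAP1. XUT0397 (82 reads) lay between MRS4, a mitochondrial iron transporter, and YSR3, and XUT0131 (79 reads) between CIR1 and SER2, the phosphoserine phosphatase of serine synthesis.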

How the data were processed

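The submitters' processing notes name Trim Galore and HISAT2. No source used here gives their versions, the genome build or the program that scored ORFs. In the authors' merged table as deposited, read counts and numbers of valid codons are unnormalized whole numbers, and the phase score is a fraction from 0 to 1. The deposited read density is a coverage signal, which equalled reads per codon within 1e-06 in all 8742 ORFs. No column names a library, so the depth per library is unknown and no test over samples was made.

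Shares, medians, Wilson and Newcombe intervals were computed in Python 3.11.15 with pandas 2.3.3 and scipy 1.17.1. The selection and the Wilson intervals were tested on simulated data, the latter with independent draws. The Newcombe intervals were not tested in this way. Order counts from the 5′ end among listed ORFs. Named were all called ORFs, uncalled ORFs with at least 5 valid codons and the 5 uncalled ORFs with most reads. The set, its lists and the named ORFs were chosen with earlier results of these data known. At the deposited coordinates 44.6% of all ORFs overlapped a gene of ASM23734v1, against 71.0% and 69.0% with all ORFs shifted by -2000 and 2000 nt. Alternatives changed the call, the minimum of reads and the limits of the selection.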

Additional observations from a re-analysis of the deposited data

How the results depend on the processing

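No paired analysis was possible because no column names a library, and for that reason no replicate could be left out. The number of called ORFs, 27 as deposited, was 15 and 10 where a score of 0.6 or 0.7 was required, 13 and 0 with a minimum of 30 or 100 reads, 5 with a minimum of 10 valid codons and 15 with up to 3 ORFs per XUT. It lay between 20 and 33 under 9 other settings. The 20 XUTs with a call became 13, 8, 9, 0, 5 and 11 under the same 6 settings, and 15 to 26 under 8 others. ORFs with reads numbered 187, but 67 at 5 reads or more, 103 with up to 3 ORFs per XUT and 111 without ORFs that overlap a listed gene. XUTs with reads numbered 110, but 57, 70 and 63 under these 3 settings. They were 132 to 256 ORFs and 91 to 144 XUTs under 7 others. The share of the table's reads, 0.826%, was 0.781% without the ORF with most reads, 0.704% and 1.04% with length limits of 150 and 300 nt, and 0.459% and 1.14% with up to 3 and 5 ORFs per XUT. It was 1.09% when XUTs on the other strand had to overlap, 0.872% with chromosome ends kept and 0.662% without ORFs that overlap a listed gene. The median score of called ORFs, 0.634, was 0.742 with at least 10 valid codons and 0.590 to 0.703 under 10 other settings. The length difference of 48 nt was -24 nt within ORFs that reach the 5 valid codons of a call, and 42 to 51 nt under 12 others. First minus later ORFs stayed between 0.0118 and 2.33 percentage points under 12 settings. With at least 100 reads no ORF was called, so scores, lengths and order gave no value there. Leaving out ORFs that overlap a listed gene was chosen after the data were seen, on either strand, since the planned same-strand form needs a strand and a named build.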

Other observations

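The few-ORF XUTs lay more often on the minus strand, with 130 of 219 there (59.4%, Wilson 95% interval 52.7 to 65.7%), against 51.2% of the 783 other XUTs (47.7 to 54.7%). In XUTs with more than 4 short ORFs this share was 55.4% (49.9 to 60.8%). These intervals overlapped. Called ORFs numbered 16 of 346 on the minus strand (4.62%, interval 2.87 to 7.38%) and 11 of 243 on the plus strand (4.53%, 2.55 to 7.92%). Chromosome 3 had the most reads, 471, and 6 of its 70 ORFs were called (8.57%, interval 3.99 to 17.5%), in 4 of 24 XUTs. XUT0488 and XUT0471 held 193 and 142 of these reads, with 2 overlapping called ORFs each. None of the 12 ORFs on chromosome 5 and none of the 22 on chromosome 10 was called, which allows shares of up to 25% and 13.6%. The listed ORFs of an XUT spanned a median of 193 nt (interquartile range 110 to 262), against 656 nt in other XUTs.

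Of the 370 pairs of neighbouring ORFs, 215 were separated, by a median of 51 nt and at most 471 nt, and 155 overlapped. In 17 pairs the neighbours shared exactly 1 nt, so that the last nucleotide of the upstream ORF was the first of the next. A called ORF was part of 2 such pairs, in XUT0397 and XUT0949. In both the downstream ORF was the called one, with 79 and 11 reads, and the upstream ORF had 0 and 1 reads. These pairs were looked up after their values were seen.

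Among the 90 XUTs with reads but no call, the ORFs held 591 reads (33.7% of all reads in few-ORF XUTs). XUT0826 alone had 86 of these.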
